A study of Mus musculus with 14 samples.

Results

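The 9 genes described here encode proteins of megakaryocytes and platelets: Pf4, Ppbp, Vwf, Itga2b, Itgb3, Gp1ba, Gp9, Treml1 and Cd9. They are a list of names, put together when earlier results of these data were known, a fall of megakaryocyte markers in dKO cells among them, and are 9 of the 24463 gene symbols in the deposited tables. RNA was measured in 14 libraries of mouse leukemic stem cells, made by giving lineage-negative bone marrow cells a retrovirus that carries p210 BCR-ABL, with 24 h between its 2 applications, and sorted 48 h after isolation as Lin-c-Kit+Sca1+GFP+ cells. The dKO group (n = 3) came from Tcf1/Lef1-deficient marrow and the WT group (n = 3) from wild-type marrow, both with no further treatment. The other libraries came from control marrow after 6 h with 20 µM PGE1 (n = 3), 20 µM PGE2 (n = 2) or the vehicle DMSO (n = 3). All 5 groups carry BCR-ABL, and all were grown before the sort with serum (15%), stem cell factor (50 ng/ml) and thrombopoietin (20 ng/ml), the last being the main growth factor of megakaryocytes. The sources used here do not give the Cre line or promoter behind the deletion, the age of the mice, or whether replicates came from separate animals. The p-values below therefore measure the spread between these libraries, which may be technical.

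Megakaryocytes are the large marrow cells that shed platelets. They arise from progenitors under transcription factors such as GATA1, FLI1 and NFE2, fill alpha granules with chemokines and von Willebrand factor, and place on the surface the receptors that let platelets stick to damaged vessels and to each other. Stem and progenitor cells already make some of these transcripts at a low level, Itga2b and Cd9 among them.

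The stretches of 250 bases before the start of 4 of the genes are printed because these genes are read together below: the granule chemokines Pf4 and Ppbp are neighbours on chromosome 5 and parted under PGE1, and Itga2b and Gp1ba code for the ligand-binding chains of the main platelet receptors. The sequences are RefSeq's, of build GRCm38.p6, written 5′ to 3′ on the gene's strand. Capitals mark the ETS core GGAAG and the GATA words, each on either strand. The GATA words searched were AGATAA with its variant AGATAG, and TGATAA with its variant TGATAG.
Pf4, chr5:90772185-90772434, plus strand: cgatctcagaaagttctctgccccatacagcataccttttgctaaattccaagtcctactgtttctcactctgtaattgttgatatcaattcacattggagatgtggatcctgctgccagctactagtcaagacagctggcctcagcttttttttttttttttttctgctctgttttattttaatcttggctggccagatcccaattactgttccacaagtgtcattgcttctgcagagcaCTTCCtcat
Ppbp, chr5:90768268-90768517, plus strand: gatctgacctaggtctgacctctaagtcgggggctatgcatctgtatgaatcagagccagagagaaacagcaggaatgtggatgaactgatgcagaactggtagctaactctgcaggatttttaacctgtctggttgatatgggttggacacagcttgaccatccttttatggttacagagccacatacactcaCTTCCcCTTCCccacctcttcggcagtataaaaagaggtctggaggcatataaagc
Itga2b, chr11:102469884-102470133, minus strand: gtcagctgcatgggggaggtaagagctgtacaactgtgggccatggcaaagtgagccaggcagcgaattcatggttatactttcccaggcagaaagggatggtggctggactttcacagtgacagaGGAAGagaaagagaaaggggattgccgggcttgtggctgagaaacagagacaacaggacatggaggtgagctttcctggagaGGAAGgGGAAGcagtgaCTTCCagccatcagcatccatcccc
Gp1ba, chr11:70638872-70639121, plus strand: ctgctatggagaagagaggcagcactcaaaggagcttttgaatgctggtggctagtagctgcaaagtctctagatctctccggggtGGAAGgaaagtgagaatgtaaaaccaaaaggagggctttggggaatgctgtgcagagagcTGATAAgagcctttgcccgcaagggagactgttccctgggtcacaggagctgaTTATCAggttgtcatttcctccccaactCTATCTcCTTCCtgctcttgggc
RefSeq windows of 300 bases, which add the 50 bases after the start, were at hand for 7 of the 9 genes, all but Itgb3 and Vwf. A GATA word was in 2 of the 7 windows, against 29.8% of all 32851 windows. Gp1ba held 3, beginning 104, 51 and 23 bases before the start, and Pf4 held 1 in the part after the start that is not printed. GGAAG was in 7 of 7 windows, against 71.4% of all windows. The cyclic AMP response word TGACGTCA was in 0 of 7 (1.79% of all windows), and its core TGACG was in 0 of 7 (20.8%). No GATA and GGAAG match shared bases in the 4 stretches printed. These are matches of letters in a short window, and binding was not measured.

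Values are FPKM, fragments scaled by gene length and by library total, so levels can be set side by side between genes. The libraries of treated cells held 19.0 to 22.7 M reads, and the 6 others 31.3 to 33.8 M. Tcf7, the gene of Tcf1, had 0.142, 0.0219 and 0.135 FPKM in dKO replicates 1, 2 and 3, against 1.15 to 1.48 FPKM in WT libraries, so it was low in dKO replicate 1 too, whose genotype field reads wild type. Lef1 averaged 0.151 FPKM in dKO and 0.283 in WT, and the exons removed are not known here. DMSO replicate 1, whose field reads Tcf1/Lef1-deficient, had 1.03 FPKM, between the other DMSO libraries. The 4 Y-linked genes Ddx3y, Eif2s3y, Kdm5d and Uty were at 0 in all 3 dKO libraries and above 0 in each other group, so genotype and sex cannot be told apart. Xist, an RNA of female cells, averaged 21.9 FPKM in dKO and 10.1 in WT, so WT libraries held it beside the Y-linked RNA. Some libraries stood apart from the others of their group, dKO replicate 1 by 14.9 to 15.9 times counting noise, PGE1 replicate 2 by 45.6 to 47.9 times and DMSO replicate 1 by 15.0 to 17.4 times, while WT libraries differed by 2.13 to 3.0 times. Of the sort genes, Kit averaged 23.0 FPKM in dKO and 28.0 in WT, and Ly6a, the gene of Sca1, 3.12 in dKO and 11.3 in WT. Itgam, a lineage antigen, was present at 30.6 FPKM in dKO and 46.8 in WT, although the cells had been sorted as lineage-negative.

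In WT cells the 9 genes spanned a wide range of levels. Pf4 was the most abundant at 144 ± 10.6 FPKM, followed by Cd9, Itga2b, Ppbp and Itgb3 at 49.6, 39.1, 26.8 and 19.1 FPKM. Treml1, Vwf, Gp9 and Gp1ba lay at 4.59, 3.69, 3.39 and 1.47 FPKM. Pf4 made 40.0% of the summed level of the 9 in dKO cells and 49.4% in WT cells. Gp1ba, Gp9 and Treml1 rested on 26 to 186 reads a library, and Ppbp on 32 to 109 in dKO libraries, so these values carry more counting error than those of Pf4 (524 to 2942 reads) or Itga2b (1800 to 6667 reads).

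**Figure D1:**
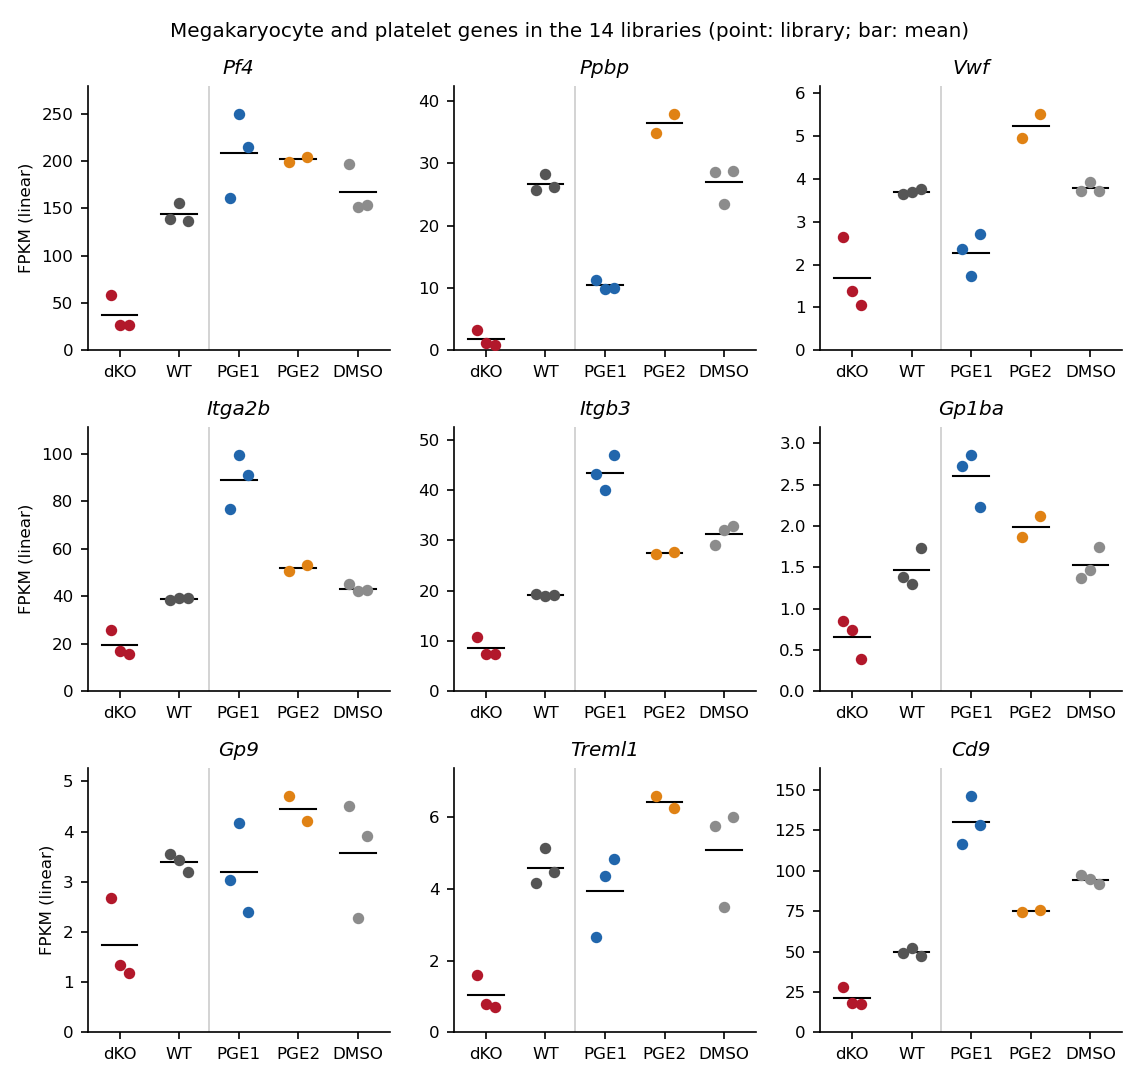
FPKM of each of the 9 genes in every library (points, linear axis from 0, scaled per gene), by group, with dKO left of WT and PGE1 and PGE2 left of DMSO; bars are group means. In every panel the 3 dKO libraries lie below the 3 WT libraries, and for Ppbp the PGE1 libraries (9.90 to 11.3) lie below the DMSO libraries (23.4 to 28.8).

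Loss of Tcf1 and Lef1 went with less RNA of the whole set. All 9 genes fell in dKO cells (limma, Benjamini-Hochberg adjusted p below 0.05), but Gp1ba entered the test only through its level in WT, which leaves 8 of 8 without it. Over all genes, 22.9% of the 10721 tested fell and 40.9% were called in either direction. Of all calls 44.1% were higher in dKO, and 60.2% under quantile normalization. For 9 of 9 the dKO libraries also lay wholly below the WT libraries, while the 2 groups did not overlap for 54.9% of all genes tested. Their median difference was -1.10 on the log2 scale, against -0.01 over all genes tested. In bulk RNA, fewer cells of the megakaryocyte lineage and less RNA in each cell cannot be told apart.

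By fold, Ppbp fell most of the 9 genes, followed by Treml1 and Pf4. Ppbp, the precursor of the platelet neutrophil attractant NAP-2, had 3.22, 1.15 and 0.894 FPKM in dKO replicates 1, 2 and 3, against 25.8, 28.3 and 26.1 FPKM in WT. The dKO libraries lay far below each WT library, with replicate 1 the highest of the dKO libraries. The fall was 15.2-fold (log2 difference -3.43 ± 0.26 SE, adjusted p = 6.12e-05), and 26.2-fold without dKO replicate 1. Pf4, the other abundant chemokine of alpha granules, had 59.0, 27.0 and 26.9 FPKM in dKO cells, against 139, 156 and 137 FPKM in WT. The groups did not overlap, and Pf4 fell 3.83-fold (-2.01 ± 0.27, adjusted p = 0.001). Vwf, the large adhesive protein stored beside them, had 2.64, 1.38 and 1.05 FPKM in dKO cells, against 3.63, 3.69 and 3.76 FPKM in WT. WT values were tightly grouped, dKO values were spread, and the groups did not overlap. Vwf fell 2.19-fold (-0.85 ± 0.19, adjusted p = 0.00987). Of the endothelial markers, which mark the other cells that make Vwf, Kdr averaged 0.0806 FPKM in dKO and 0.352 in WT. Tek averaged 0.191 FPKM in dKO and 0.388 in WT, Emcn 0.0773 in dKO and 0.259 in WT. Cdh5 averaged 0.0180 FPKM in dKO and 0.0360 in WT, and Ptprb was at 0 in dKO cells and 0.00173 in WT. All of these were under the minimum level and were not tested. The endothelial list summed to 39.3 to 47.9 FPKM in dKO and 45.1 to 49.0 in WT, nearly all of it Pecam1, which blood cells also make.

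Both chains of the fibrinogen receptor fell in dKO cells. Itga2b, the alphaIIb chain, had 25.8, 16.9 and 15.8 FPKM in dKO cells, against 38.6, 39.5 and 39.2 FPKM in WT. Itgb3, the beta3 chain, had 10.8, 7.37 and 7.42 FPKM in dKO cells, against 19.3, 18.9 and 19.2 FPKM in WT. In both genes replicate 1 was the highest dKO library and still under every WT library. Itga2b fell 2.0-fold (-1.0 ± 0.16, adjusted p = 0.00203) and Itgb3 2.24-fold (-1.10 ± 0.12, adjusted p = 0.000423). The ratio of Itga2b to Itgb3 was 2.13 to 2.39 in dKO libraries and 2.0 to 2.09 in WT libraries, without overlap. Whether the chains fell by different amounts was not tested.

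The chains of the von Willebrand factor receptor were rarer. Gp1ba, its ligand-binding chain, had 0.856, 0.748 and 0.388 FPKM in dKO cells, against 1.38, 1.30 and 1.74 FPKM in WT. It passed the minimum of 1 FPKM on average only through WT, so that it was tested at all depended on its level there. It fell 2.22-fold (-0.58 ± 0.13, adjusted p = 0.0101). Gp9, a small chain of the same complex, had 2.68, 1.35 and 1.19 FPKM in dKO cells, against 3.56, 3.42 and 3.20 FPKM in WT. Replicate 1 came closest to WT here, at 1.27-fold below the WT mean, and Gp9 fell 1.95-fold (-0.72 ± 0.18, adjusted p = 0.016).

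Of the other surface proteins, Treml1, a receptor of alpha granule membranes that appears on activated platelets, had 1.61, 0.784 and 0.694 FPKM in dKO cells, against 4.17, 5.13 and 4.48 FPKM in WT. Cd9, a tetraspanin abundant on platelets and also present on stem and mast cells, had 28.3, 18.5 and 17.9 FPKM in dKO cells, against 48.8, 52.4 and 47.4 FPKM in WT. Neither gene's groups overlapped. Treml1 fell 4.46-fold (-1.49 ± 0.16, adjusted p = 0.000364) and Cd9 2.30-fold (-1.19 ± 0.15, adjusted p = 0.000812). Cd9 overlaps 2 long noncoding genes in GRCm38, Gm28809 and Gm26728, and the sources used here do not say whether strand was used in counting.

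dKO replicate 1 was the highest dKO library for 9 of the 9 genes, and for 52.5% of the 2451 genes that fell. It thus lay between the other dKO libraries and all WT libraries for 9 of 9, which follows since those groups did not overlap. It did so for 52.0% of the 2451. Without it 9 of 9 were still called, beside 5277 of the 10735 genes then tested. Monocyte and macrophage markers moved with the set: 8 of 8 fell, their sum being 99.8 to 116 FPKM in dKO and 753 to 792 FPKM in WT. Cx3cr1, at 0.140 FPKM in dKO and 2.315 in WT, entered the test only through WT, so its call does not support that count. Beside this count and those that follow stand 22.9% lower and 18.0% higher over all genes tested. Mast cell and basophil markers fell for 6 of 7 tested, with sums of 87.8 to 99.0 FPKM in dKO and 175 to 181 in WT, and the sort genes Kit, Ly6a and Cd34 fell for 3 of 3. Neutrophil markers went both ways: Elane, Mpo and Ctsg of early granules rose and Ltf, Camp and Ngp of later granules fell, with sums of 7600 to 8290 FPKM in dKO and 5890 to 6230 in WT. Of 3 eosinophil markers tested Epx rose, and the list summed to 184 to 229 FPKM in dKO and 183 to 194 in WT. The part of these changes in the result was not tested.

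The call of Gp9 was lost without WT replicate 1 (adjusted p = 0.0549) or 2 (adjusted p = 0.0531), that of Gp1ba under quantile normalization (adjusted p = 0.084), and without WT replicate 3 Gp1ba was under the minimum. With the close WT libraries averaged into 1 sample, Ppbp, Itgb3 and Treml1 were still called, while Pf4 (adjusted p = 0.0584), Cd9 (0.053), Itga2b (0.0861), Vwf (0.176) and Gp9 (0.213) were not, and Gp1ba was under the minimum.

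**Figure D2:**
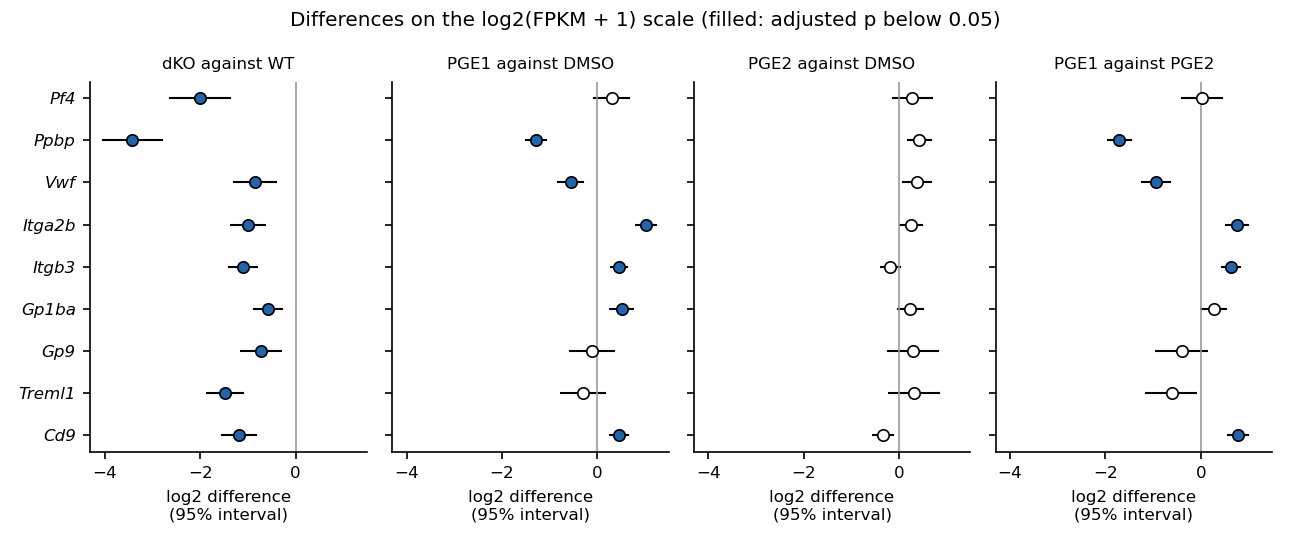
Log2 difference of each of the 9 genes on the log2(FPKM + 1) scale (points) with its 95% interval from limma (lines), a panel per comparison on a shared axis; filled points passed the adjusted p threshold of 0.05. All 9 are left of 0 for dKO minus WT, while PGE1 minus DMSO has called genes on both sides, from Ppbp at -1.29 to Itga2b at 1.02.

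PGE1 and PGE2 are prostaglandins that act through G protein-coupled receptors, and PGE1 is known as an inhibitor of platelet aggregation that raises cyclic AMP. They differ by an additional double bond in a side chain of PGE2. Both were given at 20 µM for 6 h, which makes 1 pair of compounds at a matched dose and time. Each is also set against the same 3 DMSO libraries, so the 2 sets of differences from DMSO share those values.

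PGE1 split the set. Against DMSO 6 of 9 genes were called, 4 higher (Itga2b, Itgb3, Gp1ba and Cd9, where 23.6% of the 11242 genes tested rose) and 2 lower (Ppbp and Vwf, where 25.5% fell). Over all genes tested 49.1% were called, and the groups did not overlap for 57.2%, against 6 of 9 here, so neither share is far from the background. PGE2 against DMSO gave 0 calls of 9 by limma. Over all genes 5.57% were called, 4.57% lower and 0.996% higher. The PGE2 and DMSO libraries did not overlap for 8 of 9 genes, all but Gp9, and for 49.1% of all genes. Under other settings 0 to 3 of the 9 were called, as given under the processing. PGE1 against PGE2 gave 5 calls of 9, 3 higher and 2 lower, beside 53.9% of all genes called, 27.2% higher and 26.7% lower. The groups did not overlap for 8 of 9 genes, all but Pf4, and for 69.9% of all genes.

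The chemokines parted under PGE1. Ppbp had 11.3, 9.90 and 10.1 FPKM with PGE1 and 34.9 and 37.9 FPKM with PGE2, against 28.7, 23.4 and 28.8 FPKM with DMSO. The 3 groups did not overlap, PGE1 being the lowest and PGE2 the highest. Ppbp fell 2.58-fold with PGE1 against DMSO (-1.29 ± 0.09, adjusted p = 1.44e-05), and was 3.49-fold lower with PGE1 than with PGE2 (-1.71 ± 0.10, adjusted p = 9.30e-06). With PGE2 its difference from DMSO was 0.42 (95% interval 0.19 to 0.66, adjusted p = 0.0514), and this passed the threshold under a minimum of 5 FPKM (adjusted p = 0.0482), quantile normalization (0.04) or median-of-ratios scaling (0.0456). Its neighbour Pf4 had 161, 249 and 215 FPKM with PGE1 and 199 and 204 FPKM with PGE2, against 197, 152 and 154 FPKM with DMSO. The PGE1 libraries overlapped both other groups. Pf4 differed from DMSO by 0.30 with PGE1 (adjusted p = 0.15) and 0.28 with PGE2 (adjusted p = 0.431). The first was called without PGE1 replicate 1 (adjusted p = 0.0192) and under quantile normalization (0.0352). Between PGE1 and PGE2 the difference of Pf4 was 0.03 (95% interval -0.39 to 0.44), an interval that holds changes in either direction.

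Vwf moved as Ppbp did. It had 2.37, 1.74 and 2.71 FPKM with PGE1 and 4.95 and 5.50 FPKM with PGE2, against 3.71, 3.93 and 3.71 FPKM with DMSO. Again PGE1 was lowest and PGE2 highest without overlap. Vwf fell 1.67-fold with PGE1 against DMSO (-0.56 ± 0.12, adjusted p = 0.00381) and was 2.30-fold lower with PGE1 than with PGE2 (-0.94 ± 0.13, adjusted p = 0.00038). With PGE2 it differed from DMSO by 0.38 (95% interval 0.09 to 0.67, adjusted p = 0.137; 0.0293 without PGE1 replicate 2, a library that enters the shared estimate of spread). Endothelial markers summed to 41.0 to 43.1 FPKM with PGE1 and 37.5 to 39.5 with PGE2, against 51.7 to 60.2 with DMSO, again mostly Pecam1. Against DMSO, Pecam1 fell with PGE1 (-0.49, adjusted p = 0.000536) and with PGE2 (-0.57, adjusted p = 0.00447). Tek rose with PGE1, at 1.99 FPKM with PGE1 and 0.315 with PGE2, against 0.552 with DMSO (0.95 for PGE1 against DMSO, adjusted p = 0.000119). It passed the minimum level only through PGE1, so that Tek was tested at all depended on its level there. Cdh5 averaged at most 0.1 FPKM in each group. The part of these markers in the Vwf result was not tested.

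The integrin chains rose with PGE1. Itga2b had 76.8, 99.4 and 91.2 FPKM with PGE1 and 50.6 and 53.2 FPKM with PGE2, against 45.1, 42.2 and 42.5 FPKM with DMSO. Itgb3 had 43.1, 39.95 and 46.9 FPKM with PGE1 and 27.3 and 27.7 FPKM with PGE2, against 29.0, 32.1 and 32.8 FPKM with DMSO. PGE1 libraries were the highest in both genes, while PGE2 libraries lay above DMSO for Itga2b and below it for Itgb3. Itga2b rose 2.06-fold with PGE1 against DMSO (1.02 ± 0.09, adjusted p = 4.65e-05) and was 1.72-fold higher with PGE1 than with PGE2 (adjusted p = 0.000345). Itgb3 rose 1.38-fold with PGE1 against DMSO (0.45 ± 0.08, adjusted p = 0.00117) and was 1.57-fold higher with PGE1 than with PGE2 (adjusted p = 0.00031). PGE2 differed from DMSO by 0.26 for Itga2b (95% interval 0.02 to 0.49, adjusted p = 0.2) and by -0.18 for Itgb3 (-0.37 to 0.01, adjusted p = 0.266).

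Chains of 1 receptor complex did not share a call. Gp1ba had 2.73, 2.85 and 2.23 FPKM with PGE1 and 1.87 and 2.12 FPKM with PGE2, against 1.38, 1.47 and 1.75 FPKM with DMSO. Every PGE1 library lay above every other library of the 3 groups, and Gp1ba rose 1.70-fold with PGE1 against DMSO (0.51 ± 0.10, adjusted p = 0.00376). Its PGE1 minus PGE2 difference was 0.27 (adjusted p = 0.0846), called without PGE1 replicate 3 (adjusted p = 0.0387). Gp9 had 3.03, 4.17 and 2.41 FPKM with PGE1 and 4.70 and 4.21 FPKM with PGE2, against 4.52, 2.28 and 3.92 FPKM with DMSO. The PGE1 and DMSO libraries of Gp9 were mixed, with differences of -0.11 for PGE1 (95% interval -0.58 to 0.36, adjusted p = 0.687) and 0.29 for PGE2 (-0.24 to 0.82, adjusted p = 0.54). The ratio of Gp9 to Gp1ba was 1.08 to 1.46 with PGE1 and 1.99 to 2.52 with PGE2, against 1.55 to 3.28 with DMSO. Whether Gp1ba and Gp9 respond differently was not tested.

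Cd9 had 117, 146 and 128 FPKM with PGE1 and 74.6 and 75.4 FPKM with PGE2, against 97.2, 94.6 and 91.9 FPKM with DMSO. PGE1 libraries were highest and PGE2 libraries lowest, with no overlap. Cd9 rose 1.38-fold with PGE1 against DMSO (0.45 ± 0.08, adjusted p = 0.00216) and was 1.74-fold higher with PGE1 than with PGE2 (0.78 ± 0.09, adjusted p = 0.00018). Its difference of PGE2 from DMSO was -0.33 (95% interval -0.54 to -0.12, adjusted p = 0.0826), called under quantile normalization (adjusted p = 0.00804), without PGE1 replicate 1 (0.0432) and without PGE1 replicate 2 (0.0127). Treml1 had 2.65, 4.35 and 4.83 FPKM with PGE1 and 6.57 and 6.26 FPKM with PGE2, against 5.74, 3.50 and 5.99 FPKM with DMSO. PGE2 libraries were the highest and those of the other groups overlapped. Its PGE1 minus DMSO difference was -0.30 (adjusted p = 0.261), and its PGE1 minus PGE2 difference was -0.61 (95% interval -1.14 to -0.09, adjusted p = 0.0511). The last passed the threshold under median-of-ratios scaling (adjusted p = 0.0428), with a replicate block (0.0343) and without DMSO replicate 2 (0.0264), PGE1 replicate 2 (0.0486) or PGE1 replicate 3 (0.0344).

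Between the compounds, then, 5 genes differed (Ppbp and Vwf lower, Itga2b, Itgb3 and Cd9 higher with PGE1), and Pf4, Gp1ba, Gp9 and Treml1 missed the threshold, which does not show that the compounds act alike on them. Without PGE1 replicate 2, the library that stood apart, 6 of 9 were called for PGE1 against DMSO, 6 of 9 for PGE1 against PGE2 and 3 of 9 for PGE2 against DMSO. Over all genes tested, 6126, 6653 and 1218 of 11220 were then called, against 5515, 6057 and 626 of 11242 with no library left out. Without DMSO replicate 1 the counts of the 9 were 6, 5 and 0, beside 4699, 5987 and 520 of 11230 genes. Markers of other blood cells differed too, where 23.6% of all genes tested rose and 25.5% fell with PGE1 against DMSO. Neutrophil markers fell with PGE1 for 6 of 6, with sums of 759 to 1560 FPKM with PGE1 and 5110 to 5210 with PGE2, against 3340 to 3990 with DMSO. Eosinophil markers summed to 0.374 to 23.0 FPKM with PGE1 and 79.6 to 88.6 with PGE2, against 59.0 to 72.3 with DMSO. Mast cell and basophil markers, the cells that also carry Cd9, summed to 325 to 429 FPKM with PGE1 and 248 to 249 with PGE2, against 343 to 354 with DMSO. Behind that sum 3 of 7 rose with PGE1 against DMSO, Hdc 2.46-fold (adjusted p = 1.6e-05), Cpa3 1.82-fold and Mcpt8 1.36-fold, and 2 fell, Gzmb 1.51-fold and Prss34 1.29-fold. The monocyte list had 5 of 8 genes lower and 2 higher with PGE1 against DMSO, Ly86 being 4.75-fold lower and Cd14 6.37-fold higher, with sums of 805 to 1040 FPKM with PGE1 and 1030 with PGE2, against 780 to 919 with DMSO. Of the sort genes, Cd34 was 2.11-fold lower and Kit 1.62-fold higher with PGE1 than with DMSO. The part of these shifts in the result was not tested.

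**Figure D3:**
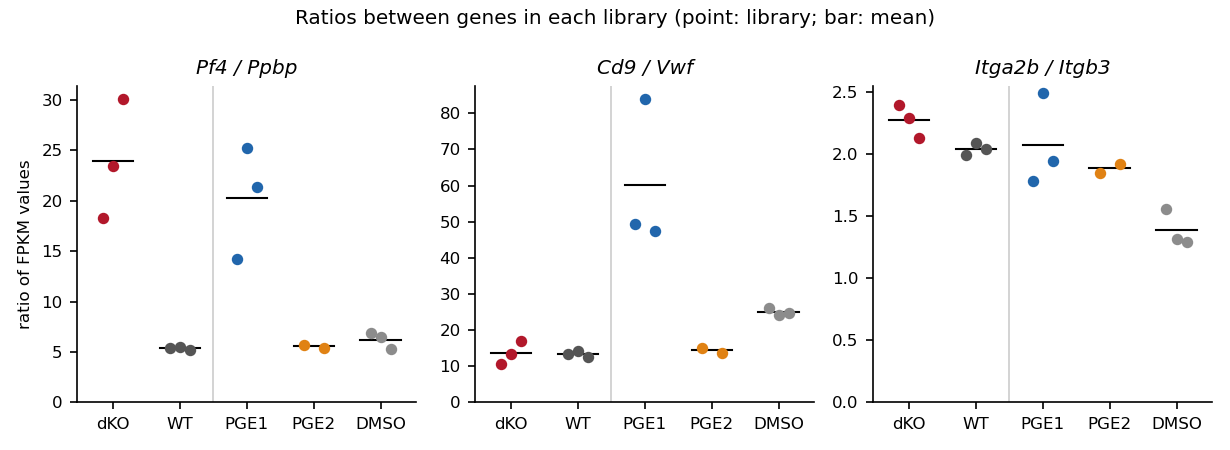
Ratios of FPKM between 3 pairs of the 9 genes in each library (points, linear axis from 0) by group, with dKO left of WT and PGE1 and PGE2 left of DMSO; bars are group means. Pf4 over Ppbp is 18.3 to 30.1 in dKO and 14.2 to 25.2 with PGE1, against 5.22 to 6.88 over PGE2, DMSO and WT libraries together.

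Ratios within a library show which genes parted. Pf4 over Ppbp was 18.3 to 30.1 in dKO libraries, against 5.22 to 5.51 in WT. It was 14.2 to 25.2 with PGE1 and 5.40 to 5.70 with PGE2, against 5.34 to 6.88 with DMSO. The high ratios had different levels behind them, since Pf4 was itself low in dKO cells (mean 37.6 FPKM) and high with PGE1 (mean 209 FPKM). Cd9 and Vwf, neighbours on chromosome 6, had a ratio of 10.7 to 17.1 in dKO libraries, against 12.6 to 14.2 in WT, so they fell by amounts that the spread does not tell apart. With PGE1 the ratio was 47.3 to 83.9 and with PGE2 13.7 to 15.1, against 24.1 to 26.2 with DMSO. Itga2b over Itgb3 was 1.78 to 2.49 with PGE1 and 1.85 to 1.92 with PGE2, against 1.3 to 1.55 with DMSO. These ratios were not tested.

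The control groups differed from each other at some of the genes. DMSO cells had been cultured longer and sequenced less deeply than WT cells, and vehicle, time and depth cannot be told apart. Cd9 was 1.91-fold higher in DMSO than in WT cells (0.92 ± 0.05, adjusted p = 3.69e-06) and Itgb3 1.64-fold (0.68 ± 0.05, adjusted p = 2.87e-05). Itga2b was 1.11-fold higher (adjusted p = 0.0177), but this did not pass when WT replicate 1 (adjusted p = 0.0709) or WT replicate 3 (0.0583) was left out, nor with WT averaged (0.235). These 3 of 9, which were also the 3 without overlap, stand beside 56.6% of all genes called (26.0% higher, 30.7% lower) and 64.3% without overlap. The other 6 missed the threshold, Ppbp with 27.0 FPKM in DMSO and 26.8 in WT (adjusted p = 0.957), although Gp9 and Treml1 were called without DMSO replicate 2 (adjusted p = 0.0418 and 0.025) and Pf4 under quantile normalization (0.00743).

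Over all 5 groups dKO had the lowest mean for 9 of 9 genes. PGE1 had the highest mean for Pf4, Itga2b, Itgb3, Gp1ba and Cd9, and PGE2 for Ppbp, Vwf, Gp9 and Treml1. Adjacent groups overlapped for PGE1 and PGE2 in Pf4, for PGE1 and dKO in Vwf, for WT and PGE1 in Treml1, for DMSO and WT in Pf4, Ppbp, Vwf, Gp1ba and Treml1, and for every adjacent pair in Gp9. They did not overlap for Itga2b, Itgb3 and Cd9. The order spans untreated and treated libraries, which also differ in time and depth. As a description over the 14 libraries, each gene's Pearson r with the mean of the other 8 was highest for Pf4 (0.99) and Treml1 (0.92) and lowest for Vwf (0.66). The 14 points fall into 5 groups and share the low dKO libraries. The pair most alike was Itgb3 and Cd9 (r = 0.99) and the least alike Vwf and Itga2b (r = 0.35).

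Outside the 9, a list of 62 further megakaryocyte and platelet genes was read by role, and 49 passed the minimum level in untreated cells. Of these 25 fell and 6 rose in dKO cells, beside 22.9% lower and 18.0% higher over all genes tested (median -0.24 on the log2 scale, against -0.01 over all genes), and 18 were not called. With WT averaged into 1 sample, fewer of these genes and fewer of all genes were called. Cd36, Rab27b and Pde5a averaged under 1 FPKM in dKO cells and entered the test only through WT, so their calls do not support these counts. Transcription factors divided evenly, 4 of 12 higher and 4 of 12 lower. Fli1, an ETS factor of the lineage, had 31.7, 32.0 and 33.3 FPKM in dKO cells, against 24.9, 26.0 and 24.7 FPKM in WT (0.35, adjusted p = 0.000448), and Nfe2, needed for platelet release, also rose (0.37, adjusted p = 0.00208), as did Lyl1 (0.17, adjusted p = 0.00774) and Mafg, the partner of Nfe2 (0.18, adjusted p = 0.0208). Zfpm1, the GATA1 cofactor FOG1, fell (-0.58, adjusted p = 0.00651), as did Gfi1b (-0.42, adjusted p = 0.0076), Gata1 (-0.34, adjusted p = 0.0134) and Gata2 (-0.24, adjusted p = 0.0421). The calls of Lyl1, Gata1, Mafg and Gata2 were each lost under at least 1 planned setting, Gata1 under quantile normalization (adjusted p = 0.153) and Gata2 when any 1 of 5 libraries was left out (adjusted p 0.0772 to 0.134). All 8 but Fli1 were lost with WT averaged.

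Receptors leaned 1 way in dKO cells, 9 of 13 tested falling and 0 rising, Cd36 among the 9, beside the 22.9% lower and 18.0% higher over all genes. Cd36, a thrombospondin receptor also made by monocytes, had 0.461, 0.627 and 0.401 FPKM in dKO cells, against 6.69, 6.15 and 5.87 FPKM in WT (-2.28, adjusted p = 1.36e-06). F2rl2, the thrombin coreceptor PAR3 of mouse platelets, fell 4.63-fold (-1.83, adjusted p = 7.92e-05), and Fcer1g, the Fc receptor gamma chain that also serves monocytes and mast cells, fell 2.38-fold (-1.23, adjusted p = 1.03e-06). Of granule genes 4 of 11 fell, with Serpine2 (-0.94, adjusted p = 0.0014) and Rab27b, a GTPase of granule transport (-0.75, adjusted p = 0.00586), leading, and the granule proteoglycan Srgn rose (0.40, adjusted p = 0.000242). Of cytoskeletal and signalling genes 8 of 13 fell, led by Rgs18 (-0.70, adjusted p = 4.69e-05), Gng11 (-0.89, adjusted p = 0.000232) and Pde5a (-0.85, adjusted p = 0.000398), and Rasgrp2, the activator of RAP1 in platelets, rose (0.40, adjusted p = 0.00101). The calls of Serpine2, Rab27b, Srgn and Rasgrp2 were lost with WT averaged.

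With PGE1, 24 of 50 further genes tested rose and 13 fell against DMSO, beside 23.6% higher and 25.5% lower over all genes, so the share that fell is near the background (median 0.22, against 0.01 over all genes). Transcription factors made 9 of the rises, and 1 of 12, Lyl1, fell. Gata1 had 19.3, 21.8 and 20.7 FPKM with PGE1 and 6.47 and 7.23 FPKM with PGE2, against 7.85, 7.02 and 6.14 FPKM with DMSO. PGE1 stood well above the others, which overlapped, and Gata1 rose 2.94-fold with PGE1 against DMSO (1.43, adjusted p = 8.66e-06) and was 3.0-fold higher with PGE1 than with PGE2 (1.46, adjusted p = 1.81e-05). Gata2 was higher with PGE1 against DMSO (0.59, adjusted p = 7.07e-05) and against PGE2 (0.84, adjusted p = 2.54e-05). The sum of markers of the erythroid lineage, which also depends on GATA1, was 9.01 to 12.8 FPKM with PGE1 and 6.49 to 6.62 with PGE2, against 5.49 to 5.73 with DMSO.

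Granule genes went both ways with PGE1, 4 of 12 tested higher and 4 lower against DMSO, as did receptors. Over all genes tested 23.6% rose and 25.5% fell, so the granule shares are not far from the background. Thbs1, thrombospondin, which platelets and other cells secrete, had 1406, 1177 and 1385 FPKM with PGE1 and 711 and 687 FPKM with PGE2, against 348, 378 and 386 FPKM with DMSO. Both compounds raised it without overlap, 3.57-fold for PGE1 (1.83, adjusted p = 4.75e-06) and 1.89-fold for PGE2 (0.92, adjusted p = 0.003). Mmrn1, multimerin, the carrier of factor V in platelets, rose 5.68-fold with PGE1 against DMSO, at 3.75 to 4.96 FPKM with PGE1 against 0.601 to 0.898 FPKM with DMSO (adjusted p = 1.44e-05). It entered the test through its level with PGE1, as did the receptor Esam. Pdgfb, at 0.537 FPKM with PGE1, 1.94 with DMSO and 1.44 with PGE2, entered only through the latter 2 groups. Results for Mmrn1, Esam and Pdgfb therefore do not support the counts of further genes given for PGE1. Between the compounds Rab27b was 3.10-fold higher with PGE1 than with PGE2 (adjusted p = 2.47e-05), F13a1, the factor XIII A chain that monocytes also make, 4.28-fold lower (adjusted p = 2.21e-05), and Selp, P-selectin, 3.40-fold lower (adjusted p = 9.26e-05). The thrombin receptors F2rl2 and F2rl3 fell with PGE1 against DMSO (-0.99, adjusted p = 6.43e-05 and -0.66, adjusted p = 8.37e-05), and F2rl2 was also lower with PGE1 than with PGE2 (-1.01, adjusted p = 9.48e-05). A further thrombin receptor, F2r, named after its value was seen, rose with PGE1 against DMSO (0.35, adjusted p = 0.00513). Of 13 receptors tested 6 rose (Gp5, P2ry1, P2rx1, F2r, Esam and Cd36) and 3 fell (F2rl2, F2rl3 and Selp), the share that fell being near the background. Of 13 cytoskeletal, signalling and lipid genes 5 fell with PGE1 against DMSO and 5 rose (Rgs18, Fermt3, Bin2, Syk and Pde5a). Those with the smallest adjusted p fell: Tbxas1, thromboxane synthase (-0.72, adjusted p = 0.000158), and Plek, pleckstrin (-0.51, adjusted p = 0.000124). Ptgs1, cyclooxygenase 1, and Rasgrp2 were lower with PGE1 than with PGE2 (-0.93, adjusted p = 9.78e-05 and -1.40, adjusted p = 0.000143).

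With PGE2, 4 of 50 further genes were called against DMSO, a share near the 5.57% over all genes. Beside Thbs1 these were Plek (-0.51, adjusted p = 0.00241), the thrombin receptor F2r (-0.39, adjusted p = 0.0355) and Mafk (-0.31, adjusted p = 0.0339), all lower. The calls of F2r and Mafk were lost when any 1 of 4 libraries was left out (adjusted p 0.14 to 0.271), that of Thbs1 without PGE2 replicate 1 (0.061) or 2 (0.0556), and that of Plek without PGE2 replicate 2 (0.0534). Leaving out 1 library of the fit at a time gave 0 to 9 calls, 0 without PGE2 replicate 2 and 9 without PGE1 replicate 2.

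**Figure D4:**
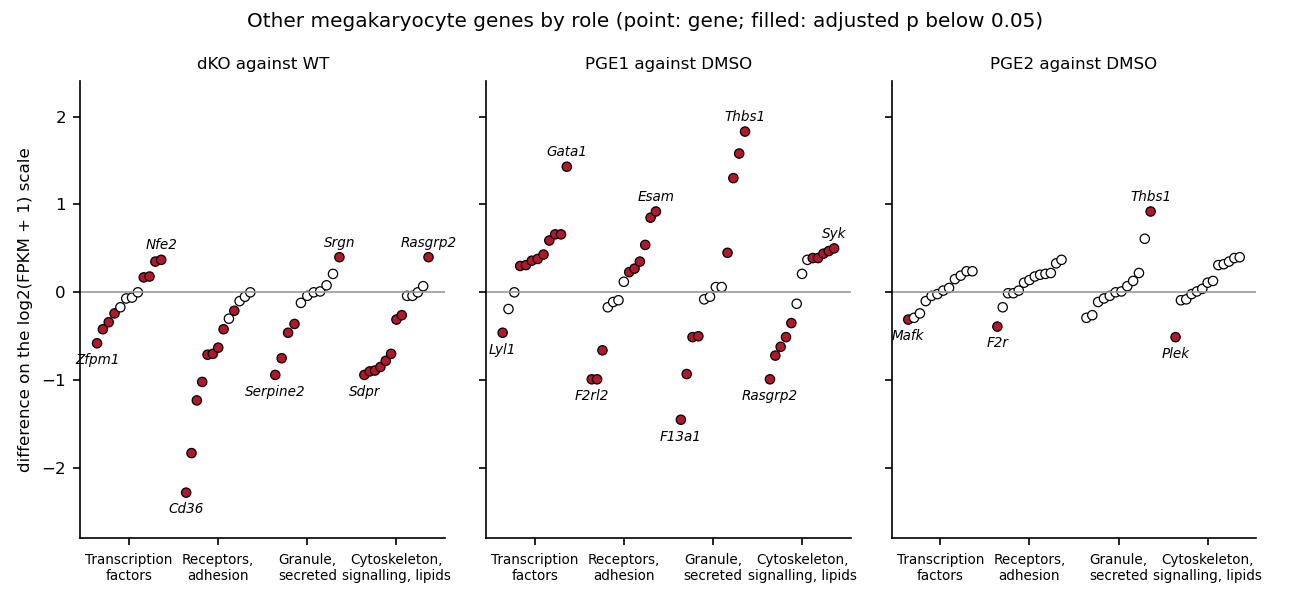
Differences on the log2(FPKM + 1) scale (vertical axis) of the further megakaryocyte and platelet genes that passed the minimum level, by role and sorted within it, for dKO minus WT, PGE1 minus DMSO and PGE2 minus DMSO; filled points passed the adjusted p threshold of 0.05, and the outermost called genes are named. Called receptors lie below 0 for dKO minus WT (9 lower, 0 higher), and called transcription factors mostly above 0 for PGE1 minus DMSO (9 higher, 1 lower).

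Of 10530 other genes ranked by likeness to the mean profile of the 9, the 5 most alike were Zfp36, Jun, Hist1h1c, Junb and Ifitm6, each with a Pearson r of 0.98 over 14 libraries. Zfp36, an mRNA decay factor, averaged 8.30 FPKM in dKO and 41.0 in WT, and 45.7 with PGE1 and 54.1 with PGE2 against 51.9 with DMSO. Jun, a subunit of AP-1, averaged 8.30 FPKM in dKO and 21.3 in WT, and 38.7 with PGE1 and 33.8 with PGE2 against 31.7 with DMSO. Over the 11 libraries other than dKO the r values of the 5 were 0.59 to 0.88, the lowest for Hist1h1c and the highest for Junb, so that part of the likeness rests on the low dKO libraries.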

How the data were processed

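RNA was sequenced from 14 libraries of mouse leukemic stem cells. The authors deposited 1 table of FPKM values per library. Per the submitters' processing notes these were made with CASAVA 1.8, TopHat and Cufflinks on build mm9, with no further scaling recorded. The sources used here do not give the annotation, the strand handling or the treatment of reads shared between genes. All 19057 genes with reads held whole multiples of 1 read's worth (within 0.0001 read), which gave the read counts and library totals. Reads carry no molecular identifiers, so counts show counting error only.

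Groups follow the sample titles. Two-sided tests used limma 3.58.1 (lmFit, eBayes with trend) in R 4.3.3 on log2(FPKM + 1), for genes averaging at least 1 FPKM over the libraries fitted, with Benjamini-Hochberg adjustment over all genes tested and a threshold of 0.05. A log2 difference on this scale understates the change of rare genes, and fold changes are ratios of mean FPKM. The 6 untreated libraries, the 8 treated libraries and the 6 of WT and DMSO were fitted apart. Code was tested on simulated data. Other steps used Python 3.11.15 and pandas 2.3.3. Promoter windows are RefSeq's of GRCm38.p6 and were matched by symbol, with no coordinates converted.

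All 9 genes are named in each comparison. From the list of 62, up to 3 called genes per role with the smallest adjusted p are named for dKO against WT, with every called gene there that goes against its role's majority, and up to 2 for each treated comparison. The members and lists were chosen with earlier results of these data known, and the fall of megakaryocyte markers in dKO cells was among those results. Alternatives were the pseudocount (0.1 FPKM), the minimum (none or 5 FPKM), quantile and median-of-ratios scaling, a replicate block and leaving out each library. Averaging WT and leaving out libraries of the third group of a fit were added after seeing the data.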

Additional observations from a re-analysis of the deposited data

How the results depend on the processing

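The pseudocount of 0.1 FPKM changed no call of the 9 genes. For dKO against WT, 5 of 5 genes tested were called at a minimum mean of 5 FPKM, 3 with WT libraries averaged as 1 sample, and 8 to 9 when leaving out 1 library. All genes called numbered 4381, against 768 with WT averaged, and 3053 to 5277 with 1 library left out. The share of all calls that were higher was 44.1%, against 60.2% under quantile normalization, 54.7% at a minimum of 5 FPKM and 21.9% with WT averaged. Further megakaryocyte genes called were 31, against 20 at a minimum of 5 FPKM and 7 with WT averaged. For PGE2 against DMSO the 9 genes gave 0 calls, against 1 at a minimum of 5 FPKM, 2 under quantile normalization, 1 under median-of-ratios scaling, and 0 to 3 with 1 library left out. All genes called were 626, with 125 to 1218 when leaving out 1 library, and further megakaryocyte genes called were 4, with 0 to 9. For DMSO against WT, the 9 genes gave 3 calls, with 2 to 5 when leaving out 1 library, and WT averaged gave 2543 of all genes (against 6296) and 12 further genes (against 28).

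Some differences, none of them called as reported, turned sign. Under quantile normalization, DMSO minus WT was -0.05 for Vwf, -0.08 for Gp1ba and -0.07 for Gp9. When leaving out 1 library, PGE1 minus DMSO was -0.33 to 0.04 for Gp9, PGE1 minus PGE2 was -0.11 to 0.2 for Pf4, and DMSO minus WT was -0.04 to 0.1 for Ppbp, -0.03 to 0.11 for Gp1ba, -0.13 to 0.25 for Gp9 and -0.02 to 0.3 for Treml1. The cause was not tested.

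With the replicate block, 9 genes were called for dKO against WT, 6 for PGE1 against DMSO, 0 for PGE2 against DMSO, 6 for PGE1 against PGE2 and 3 for DMSO against WT. Over all genes it called 3972, 5191, 269, 5313 and 6175 in the same order, and for PGE2 against DMSO 2 further megakaryocyte genes. The numbers did not pair the libraries: same-numbered libraries' deviations correlated at -0.27 to 0.26, and DMSO replicate 1 correlated best with PGE1 replicate 2 (0.43). Depth limits Gp1ba, Gp9, Treml1 and, in dKO, Ppbp most.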
